A study of Mus musculus with 18 samples.

Results

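Tetraspanins are small proteins that pass several times through the membrane and gather integrins, adhesion proteins and proteases into patches on the cell surface. Cd63, Cd9 and Cd81 are known from the surface of exosomes, the vesicles released when multivesicular bodies fuse with the plasma membrane, and Cd63 itself cycles between late endosomes, lysosomes and the cell surface. The 10 tetraspanin genes Cd63, Cd9, Cd81, Cd82, Cd151, Cd53, Cd37, Tspan3, Tspan4 and Tspan8 were examined by their symbols in a table of 54838 mouse genes, in which each was found in 1 row. Cd63 led the choice of this family because it was near absent in livers and high in liver tumours, so its tumour and liver values are given as a description, without a test.

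Gene expression was measured by RNA-seq in 18 liver samples of male C57BL/6 mice at an age of 36 weeks, in 6 groups of 3. Wild type (WT) mice and mice lacking the microRNA cluster miR-181ab1 in all tissues (GKO) gave normal liver without treatment. Both genotypes also gave tumours, and liver beside tumours (non-tumour), after 1 intraperitoneal injection of diethylnitrosamine (DEN, a carcinogen that hepatocytes activate) at 25 mg/kg on postnatal day 12. The knockout is constitutive, so every cell of these livers carried it. The labels do not tell which samples came from 1 mouse, whether a sample was a single tumour, or in which batch a library was made.

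The values are TPM (the reads of a gene over its length, on a scale with an equal sum per sample), and the reads recovered from them amounted to between 11925033 and 20751390 on genes per sample. Albumin (Alb), which marks hepatocytes, lay between 22860 and 44070 TPM in the livers and between 83550 and 139800 TPM in the tumours. The summed level of 10 hepatocyte genes was 67200 to 98800 TPM in livers and 197000 to 234000 TPM in tumours. Alb, Apoa1 and Ahsg weighed most in it, with means of 105600, 55030 and 31550 TPM in WT tumours. By mean log2 level, 7 of the 10 genes were higher in tumours than in non-tumours in WT mice and 9 in GKO mice. Mir181a-1 and Mir181b-1, the deleted genes, were listed at 0 TPM in every sample of both genotypes except for Mir181a-1 at 1.4 TPM in GKO tumour 3, so these libraries of long RNA cannot show the knockout. WT non-tumour 2 stood apart from the other livers in many members below, with the highest liver value of Cd63, Cd9, Cd82, Cd151 and Tspan8. In bulk tissue, a change in the number of cells of a type and a change in RNA per cell cannot be told apart.

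The 2 mature microRNAs made from the deleted cluster share a seed (bases 2 to 8, in capitals), which pairs with target RNAs. They are shown because the 3′ UTRs were searched for the match of the whole seed, TGAATGT. RefSeq gives them for GRCm38.p6, chromosome 1, plus strand:
miR-181a-5p, 137966468 to 137966490: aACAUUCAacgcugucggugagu
miR-181b-5p, 137966650 to 137966673: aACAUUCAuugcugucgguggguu
Of the 10 tetraspanin genes, 0 had this match in the 3′ UTR of the GENCODE transcript examined, whose length ran from 82 bases in Cd63 to 1695 bases in Cd37. Among 11760 genes with a 3′ UTR that were tested between tumours, 2069 (17.6%) had it. Shorter matches and other transcripts were not searched, so this count does not show that no member is a target.

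Cd63 (ENSMUSG00000025351) lies on the plus strand of chromosome 10 of mm10, from 128900989 to 128912822. Because its level separated tumours from livers, the 250 bases before the RefSeq start are shown (GRCm38.p6, chr10:128909095-128909344, plus strand), a stretch inside the GENCODE gene that overlaps no annotated exon:
Cd63, before the start: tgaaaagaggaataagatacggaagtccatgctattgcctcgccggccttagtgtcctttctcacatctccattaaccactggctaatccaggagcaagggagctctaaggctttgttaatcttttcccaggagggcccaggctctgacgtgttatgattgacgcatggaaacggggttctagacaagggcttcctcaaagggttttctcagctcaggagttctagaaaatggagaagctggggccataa
Its GC content was 48.8%, against a median of 52.4% over 32851 promoters. On either strand it held none of 5 motifs searched, namely the E-box CACGTG, the AP-1 site TGACTCA, the core TGACNNNGC, the GC box GGGCGG and TATAAA, which were present in 6.02%, 4.46%, 10.2%, 32.7% and 12.4% of all promoters. The GC box was found before a start of Cd151, Cd37, Cd81, Cd82, Cd9 and Tspan4, and the E-box before a start of Cd37 and Tspan4.

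Cd63 was low in each of the 12 livers and high in each of the 6 tumours. Normal livers 1, 2 and 3 had 3.04, 1.77 and 5.46 TPM in WT mice and 9.64, 8.53 and 3.67 TPM in GKO mice. Non-tumour livers had 6.35, 12.8 and 6.56 TPM in WT mice and 7.08, 6.00 and 4.82 TPM in GKO mice. Tumours 1, 2 and 3 had 185.4, 237.8 and 142 TPM in WT mice and 272.6, 258.9 and 243.9 TPM in GKO mice. The lowest tumour was thus 11.1 times the highest liver, which was WT non-tumour 2, and the next highest liver had 9.64 TPM. These values rested on 58 to 385 reads in a liver and 4614 to 9273 reads in a tumour.

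In order of their means, Cd63 had 3.43 ± 1.88 TPM in WT normal livers, 5.96 ± 1.13 in GKO non-tumours, 7.28 ± 3.17 in GKO normal livers, 8.57 ± 3.67 in WT non-tumours, 188.4 ± 48 in WT tumours and 258.4 ± 14.4 in GKO tumours (SD, n = 3 each). Neighbours among the 4 liver groups overlapped in their samples, whereas the WT tumours overlapped with neither the livers nor the GKO tumours. The mean of the tumours was 22.0 times that of the non-tumours in WT mice and 43.3 times in GKO mice. Among the summed TPM of the 10 tetraspanins, Cd63 took 1.04% to 1.95% in the liver groups, 16.1% ± 3.32 in WT tumours and 28.9% ± 4.79 in GKO tumours (SD, n = 3).

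**Figure D1:**
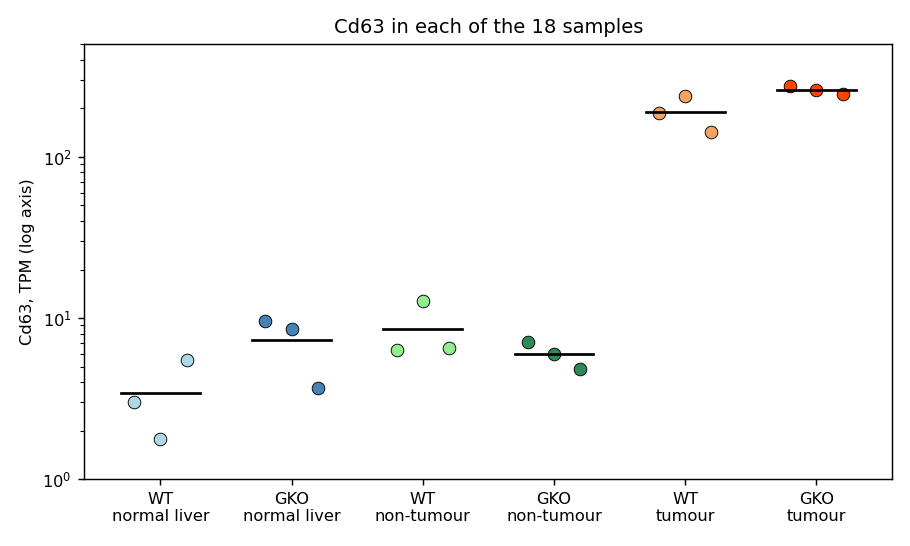
Cd63 in TPM on a log axis for each sample (points) and the mean of each group of 3 (bars). The 12 livers lie between 1.77 and 12.8 TPM and the 6 tumours between 142 and 272.6 TPM.

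Cd63 has a processed pseudogene, Cd63-ps, whose reads the counting may have split from those of Cd63. Cd63-ps was listed at 0 to 0.993 TPM in livers (0 to 7 reads) and at 9.58 to 33.0 TPM in tumours (74 to 237 reads). Its reads came to at most 3.45% of those of Cd63 in a sample, and to 1.34% to 3.29% in the tumours. Both genes therefore separated the same samples, and which of them the reads came from is uncertain.

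The 5 genes whose pattern was most like that of Cd63 were chosen by Pearson's r of log2(TPM + 1) over the 18 samples, among 7191 genes whose mean in tumours reached 5 TPM. They were App (amyloid precursor protein, r = 0.979), Dusp5 (a phosphatase acting on the kinase ERK, r = 0.979), Pygb (brain glycogen phosphorylase, r = 0.976), Tstd1 (r = 0.976) and Cd63-ps (r = 0.976). App had a median of 8.55 TPM in livers and 72.2 TPM in tumours. Dusp5 had medians of 0.855 and 21.8 TPM, Pygb of 0.932 and 22.8 TPM, and Tstd1 of 31.3 and 804.7 TPM. The 18 points of each correlation form a liver and a tumour cluster. Within the 12 livers r lay between 0.56 and 0.86 for these genes, and within the 6 tumours between −0.60 and 0.56. The likeness is therefore mostly the step from liver to tumour. That step also led to the choice of Cd63, so the ranking is a description and no test. Dusp5, Pygb and Cd63-ps had at most 2.03, 1.83 and 0.993 TPM in a liver and passed the filter only through the tumours. The plot of Cd63 against Cd63-ps shows the step, but the 2 may share reads, so it does not stand for App, Dusp5, Pygb or Tstd1.

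**Figure D2:**
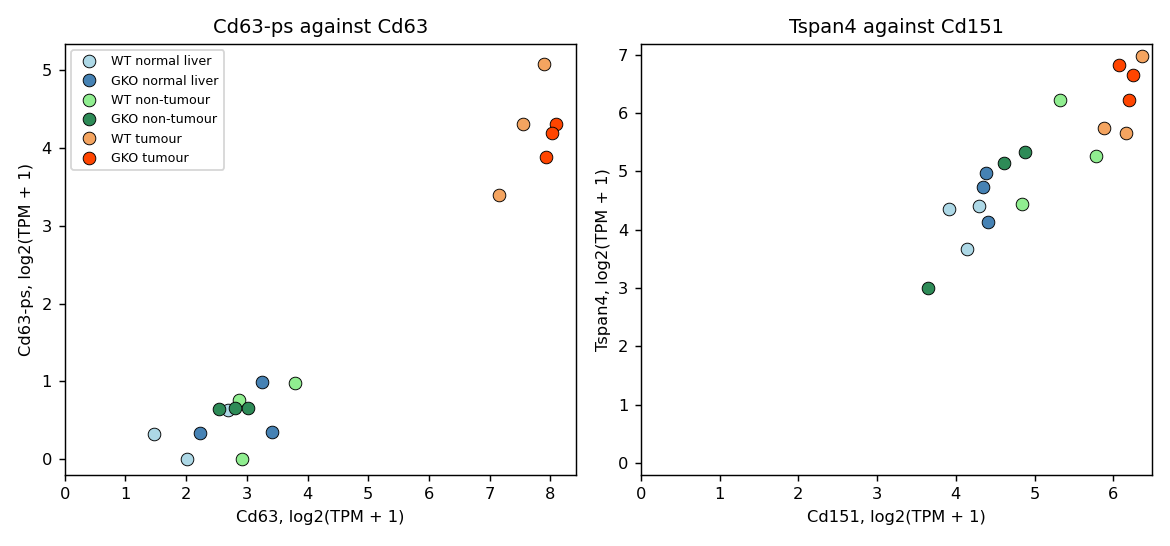
Levels on the log2(TPM + 1) scale of Cd63-ps against Cd63 (left) and Tspan4 against Cd151 (right), 1 point per sample. On the left the tumours stand apart from the livers on both axes; on the right WT non-tumour 2 and 3 lie next to the tumours.

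Cd9, a tetraspanin of the cell surface and of exosomes, was high in WT tumours but at or below the range of livers in 2 of 3 GKO tumours. It lies on the minus strand of chromosome 6, from 125460266 to 125494791. WT tumours 1, 2 and 3 had 457.4, 383.1 and 112.2 TPM, and GKO tumours 15.1, 89.9 and 31.8 TPM. The livers had 20.8 to 33.1 TPM, except for WT non-tumour 2 with 70.4 TPM. Each WT tumour exceeded each GKO tumour, and GKO tumour 1 had less Cd9 than any liver. Cd9 took 26.9% ± 15 of the summed tetraspanin TPM in WT tumours and 4.77% ± 3.67 in GKO tumours (SD, n = 3).

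Cd81, which hepatocytes carry on their surface and which serves hepatitis C virus as an entry factor in humans, had the highest TPM of the 10 genes in each liver group. It lies on the plus strand of chromosome 7, from 143052739 to 143067934. Its levels were 172.4 to 267.8 TPM in normal livers, 183.4 to 338.3 in non-tumours, 333.2 to 421.0 in WT tumours. GKO tumours had 202.3, 377.1 and 358.2 TPM. GKO tumour 1 was low in Cd81 as it was in Cd9. Cd81 made up 58.4% to 65.1% of the summed tetraspanin TPM in the liver groups and 32.8% ± 4.93 and 34.1% ± 7.43 in WT and GKO tumours (SD, n = 3).

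Tspan8, a tetraspanin known from epithelial cancers of the gut, was close to the floor in livers. It lies on the plus strand of chromosome 10, from 115816832 to 115849893. Its livers ranged from 0 to 1.80 TPM, on 0 to 28 reads. WT tumours had 24.2, 25.4 and 114.8 TPM, whereas GKO tumours had 31.6, 64.1 and 0.501 TPM. GKO tumour 3, with 7 reads of Tspan8, was the 1 tumour in the range of the livers.

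Cd151, which binds laminin-binding integrins, and Tspan4, known from the migrasomes that moving cells leave behind, are neighbours on the plus strand of chromosome 7. Cd151 spans 141467392 to 141471473, and Tspan4 begins 3766 bases further on and spans 141475240 to 141493427. Cd151 had 57.8, 70.3 and 81.2 TPM in WT tumours, beside 75.4, 72.5 and 66.5 TPM in GKO tumours. WT non-tumours had 27.6, 53.9 and 39.2 TPM, GKO non-tumours 28.5, 11.5 and 23.5 TPM, and normal livers 14.1 to 20.2 TPM. Each tumour exceeded each liver, with the lowest tumour at 1.07 times WT non-tumour 2. Tspan4 had 52.4, 49.6 and 125.4 TPM in WT tumours, beside 99.1, 73.3 and 111.8 TPM in GKO tumours. It had 20.7, 37.5 and 73.9 TPM in WT non-tumours, 39.4, 6.97 and 34.2 TPM in GKO non-tumours and 11.7 to 30.4 TPM in normal livers. For Tspan4, WT non-tumour 3 thus exceeded 3 of the 6 tumours. Over the 18 samples, which share libraries and tissues, the 2 genes had an r of 0.90, with 0.79 within the 12 livers and 0.61 within the 6 tumours. Exons of Tspan4 overlap those of Chid1 on the opposite strand, and reads of the 2 genes could not be told apart there without strand. Chid1 had a mean of 6.28 TPM over the 18 samples.

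Cd82 (minus strand of chromosome 2, 93419111 to 93463140), described as a suppressor of metastasis, had 51.0 to 101.9 TPM in tumours and 45.2 to 110.2 TPM in livers, with its highest value in WT non-tumour 2. Tumours and livers of Cd82 overlapped over nearly their whole range. Tspan3 (minus strand of chromosome 9, 56131725 to 56165477) was a low member. It had 1.61, 2.31 and 1.64 TPM in WT tumours, 3.14, 4.81 and 3.42 TPM in GKO tumours and 0.827 to 2.22 TPM in livers. The 3 GKO tumours, on 120 to 168 reads, stood above all livers and all WT tumours, and WT tumour 2 lay just above the highest liver.

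Cd53 and Cd37 belong to white blood cells, and both were low. Cd53 (minus strand of chromosome 3, 106759921 to 106790149) had 3.19 to 7.64 TPM in tumours and 2.04 to 10.6 TPM in livers. Cd37 (minus strand of chromosome 7, 45233632 to 45239115) had 0.869 to 3.37 TPM in tumours and 0.452 to 4.73 TPM in livers. The highest Cd53 was in GKO non-tumour 1, which also had the highest sum of 12 macrophage genes, 1430 TPM. The lowest Cd53 was in WT normal liver 3, with a macrophage sum of 275 TPM. WT normal liver 2 had the lowest such sum, 165 TPM, and 3.36 TPM of Cd53. The lowest Cd37 was in WT non-tumour 2, which had the lowest sum of 9 B cell genes, 7.59 TPM. The part of these cells in the 2 levels was not tested. Exons of Cd37 overlap those of Tead2 on the opposite strand, which had a mean of 0.746 TPM.

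**Figure D3:**
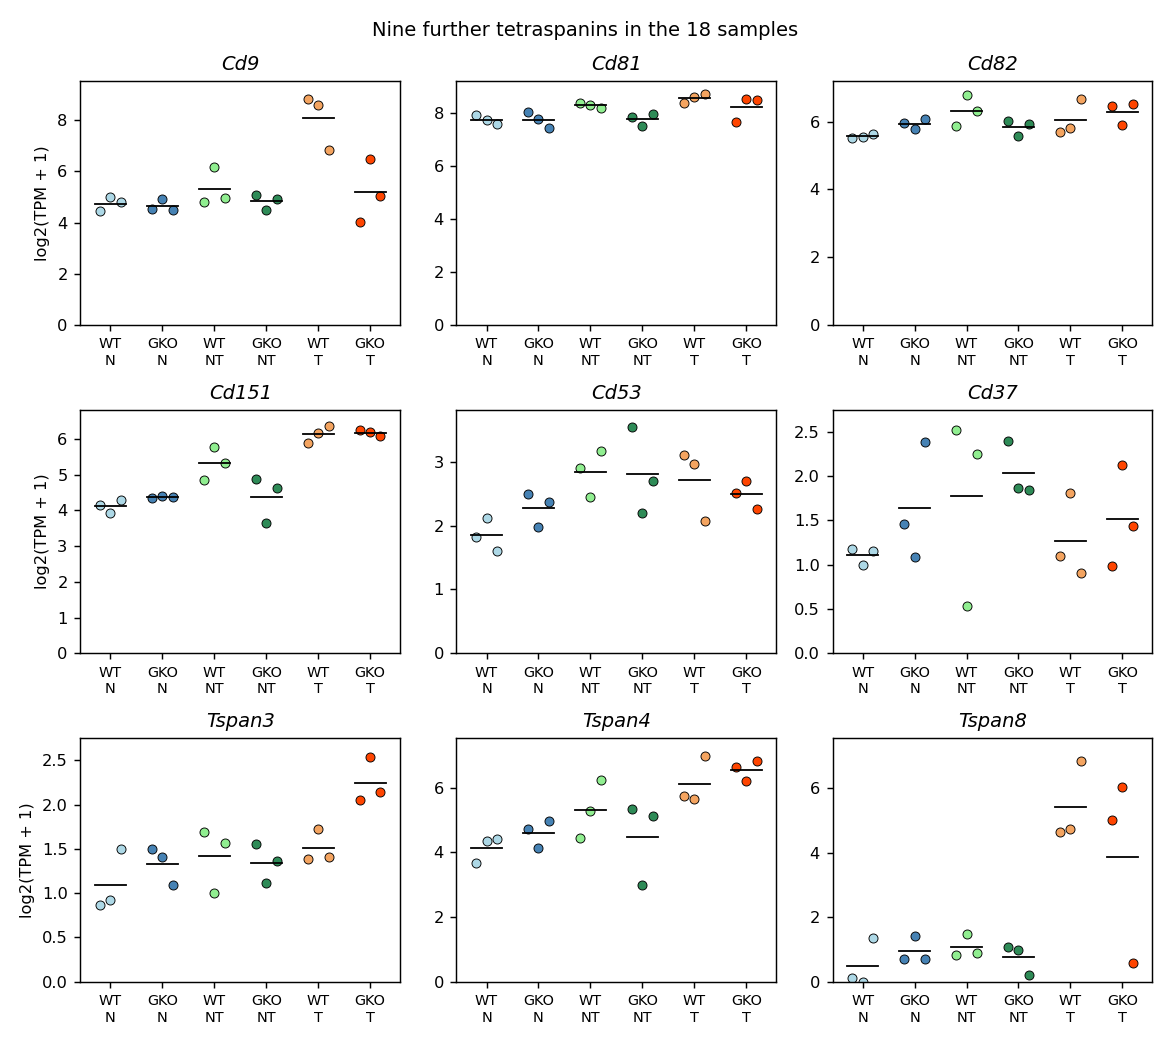
The 9 members besides Cd63 in normal livers (N), non-tumours (NT) and tumours (T) of WT and GKO mice, on the log2(TPM + 1) scale, with 1 point per sample and a bar at the group mean. Cd9 is high in the 3 WT tumours, Tspan8 in 5 of 6 tumours, and Tspan3 in the 3 GKO tumours.

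The comparisons were tested with limma on log2(TPM + 1) over all genes whose mean reached 0.5 TPM. A gene was called where its p, adjusted by Benjamini and Hochberg's method, was under 0.05. All 10 members passed this filter in each comparison. Folds below are differences on this log2 scale with their standard error (SE), and the added 1 makes them smaller for genes of few TPM such as Tspan3 and Tspan8. For 1 gene, an exact permutation test of 3 samples against 3 cannot give a p below 0.1, and since nothing says how the replicates were drawn from mice, p-values measure only the spread between these samples.

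Between GKO and WT tumours, Cd9 differed most among the members. Its log2 fold change was −2.90 (SE 0.75), lower in 3 of 3 GKO tumours, with an unadjusted p of 0.00616 from limma and an adjusted p of 0.383. Tspan3 had 0.74 (SE 0.23, limma adjusted p = 0.465) and Cd63 had 0.48 (SE 0.25, limma adjusted p = 0.614), both higher in each GKO tumour. Tspan8 had −1.53 (SE 1.39), a value that GKO tumour 3 carried, since it was 0.12 without that sample. Limma called 0 of the 10 members, against 0.0215% of the 13964 genes tested, and voom on recovered reads called 0 as well. At an unadjusted p under 0.05 there were 2 members, Cd9 and Tspan3, beside 1238 of the 13964 genes tested. In 3 of the 10 the groups did not overlap, and this was so for 14.7% of all genes. The members had a median of 0.139, and all genes one of 0.087.

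The adjusted p of Cd9 ran from 0.0247 when all 18 samples were fitted together to 0.982 without WT tumour 1, over the limma alternatives. Its log2 fold change ran from −3.56 to −2.31 over the alternatives.

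In WT mice, tumours were set against non-tumours, and Tspan8 rose by 4.34 (SE 0.60, limma adjusted p = 0.013), with each tumour above each non-tumour. Cd9 had 2.79 (SE 0.62, limma adjusted p = 0.0587) and Cd151 had 0.82 (SE 0.30, limma adjusted p = 0.201), and neither overlapped between the groups. Tspan4 had 0.82 (SE 0.54). For Cd63, whose choice used this difference, the value was 4.34. Among the 9 members other than Cd63, 1 was called, against 4.23% of all genes, and 3 did not overlap, against 24.8% of all genes, which is not read as a result because the choice of the family used tumours and livers. The count of 1 was 0 without WT non-tumour 1 or WT non-tumour 3, and 2, with Cd9 added, without WT tumour 3. With voom the 1 gene called was Cd9 (adjusted p = 0.0487), and Tspan8 had an adjusted p of 0.0512. Without WT non-tumour 2, the liver that stood apart, the value of Tspan8 was 4.55 (limma adjusted p = 0.0289).

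In GKO mice the same comparison called Cd151, which rose by 1.80 (SE 0.34, limma adjusted p = 0.0199), and Tspan3, which rose by 0.90 (SE 0.22, limma adjusted p = 0.0424). Each tumour lay above each non-tumour for both. Tspan4 did not overlap either, with 2.07 (SE 0.60, limma adjusted p = 0.064). Tspan8 had 3.12 (SE 1.25, limma adjusted p = 0.137) with GKO tumour 3 among the livers, and 4.77 (limma adjusted p = 0.0143) without it. Cd9 had 0.35 (SE 0.58), and −0.31 without GKO tumour 2. The value for Cd63 was 5.23.

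Of the 9 members other than Cd63, 2 were thus called in GKO mice, against 11.7% of all genes, and 3 did not overlap, against 38.3% of all genes, again with nothing read from these counts. Of 1652 genes called, 1092 were higher in tumours, and after median centring 777 of 1767 were, after quantile normalization 957 of 1841 and with voom 897 of 1787. The median of all genes was 0.199 before centring. Cd151 stayed called under the first 2 of these scalings and voom, and Tspan3 under none of them, with limma adjusted p-values of 0.0745 after median centring and 0.0548 after quantile normalization. The count of 2 was 0 without GKO non-tumour 3 or GKO tumour 1, and 1 without any other sample. Without GKO tumour 3 that 1 gene was Tspan8, and in the remaining cases it was Cd151.

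Whether the effect of genotype differed between tumours and non-tumours was tested directly, as the GKO minus WT difference in tumours less that in non-tumours. This was −2.44 (SE 0.93) for Cd9, 0.89 (SE 0.40) for Cd63, 0.81 (SE 0.33) for Tspan3 and 0.98 (SE 0.47) for Cd151. Limma called 0 of the 10 members, against 0.0142% of all genes, and voom called 0. An unadjusted p under 0.05 was found for 3, namely Cd9, Cd63 and Tspan3, with limma adjusted p-values of 0.468, 0.475 and 0.472. It was also found for 1483 of the 14106 genes tested, of which 1121 had a positive difference. All genes had a median of 0.227, and one of 0.00848 after median centring.

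**Figure D4:**
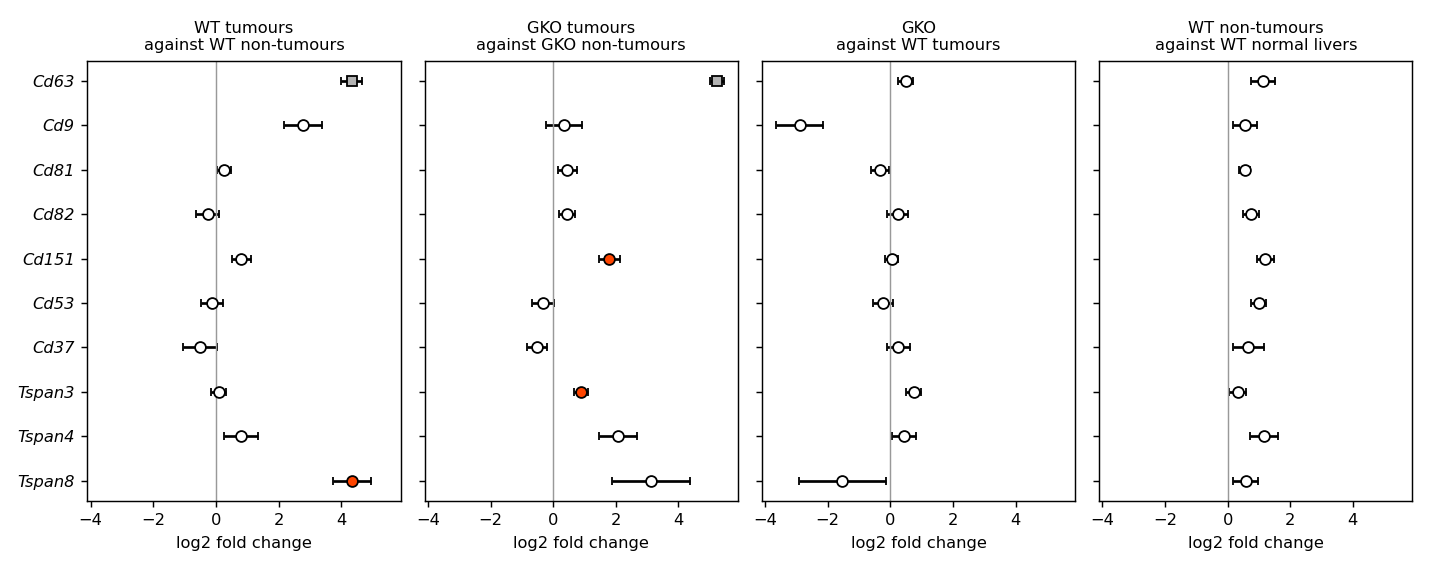
Log2 fold changes of the 10 members in 4 comparisons (points) with their SE (bars). Filled orange points have a limma adjusted p under 0.05, grey squares mark Cd63 where its choice used the comparison and no test is given, and open points did not pass; the WT non-tumour panel stands against a median of all genes of 0.32.

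Liver after DEN was compared with untreated liver of the same genotype. In WT mice all 10 members had a positive difference, of which that of Tspan3 turned after median centring, and in 6 (Cd151, Cd53, Cd63, Cd81, Cd82 and Tspan4) each non-tumour lay above each normal liver, as did 31.0% of all genes. The values were 1.20 (SE 0.27) for Cd151, 1.17 (SE 0.45) for Tspan4, 1.13 (SE 0.38) for Cd63, 0.99 (SE 0.25) for Cd53, 0.76 (SE 0.26) for Cd82 and 0.54 (SE 0.19) for Cd81. All genes had a median of 0.325 in this comparison, and after median centring the 6 values were 0.82, 0.79, 0.76, 0.62, 0.38 and 0.17. Limma called 0 members, against 0.00744% of all genes, and voom 0. An unadjusted p under 0.05 was found for 6 members (limma adjusted p-values of 0.118 to 0.185) and for 3282 of the 13440 genes tested. Without WT non-tumour 2 the value of Cd63 was 0.84 and that of Cd151 0.96. The sum of 12 macrophage genes was 165 to 275 TPM in WT normal livers and 317 to 923 TPM in WT non-tumours, and its part in these values was not tested.

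In GKO mice, non-tumours and normal livers overlapped for each of the 10 members. Limma called 0, against 0% of all genes, voom 0, and 0 had an unadjusted p under 0.05, beside 703 of the 13530 genes tested. The members had a median of 0.007, and all genes one of 0.082.

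The genotypes were also compared in livers. In normal livers Cd151 (0.26, SE 0.16) and Cd82 (0.37, SE 0.15) were higher in each GKO sample, where 7.95% of all genes did not overlap, and Cd63 had 0.90 (SE 0.40) with overlapping groups. Limma called 0 of the 10, against 0% of all genes, and voom 0. Cd82 was the 1 member with an unadjusted p under 0.05 (limma adjusted p = 0.999), beside 519 of the 13099 genes tested. In non-tumours Cd81 (−0.52, SE 0.22) was the 1 member without overlap, being lower in each GKO sample, where 13.2% of all genes did not overlap. Cd151 (−0.93, SE 0.39) was the 1 member with an unadjusted p under 0.05 (limma adjusted p = 0.643), beside 799 of the 13768 genes tested. Limma again called 0 of the 10, against 0% of all genes, and voom 0. The members had a median of −0.434 in non-tumours and 0.399 in normal livers, and all genes had −0.147 and 0.064. A positive difference was found for 1 of the 10 members in non-tumours and for 9 in normal livers.

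The wider family was followed through 21 further tetraspanin genes, of which 13 passed the filter on low values in the tumour comparisons. Tspan2, Tspan6 and Tspan18 did so only through the tumours, with a mean under 0.5 TPM in the non-tumours of both genotypes. In WT tumours against non-tumours 1 of the 13 rose, Tspan15, a partner of the protease Adam10, with 1.67 (SE 0.26, limma adjusted p = 0.0201), from 1.02 ± 0.222 to 5.58 ± 2.06 TPM (SD, n = 3), where 4.23% of all genes were called. In GKO mice 4 of 13 rose, Tspan15 by 2.16 (SE 0.35), Tspan31 by 2.14 (SE 0.50), Tspan9 by 1.29 (SE 0.28) and Tspan13 by 1.22 (SE 0.23), with limma adjusted p-values of 0.0135 to 0.0377, where 11.7% of all genes were called. Over the 21 genes without the filter, the median was 0.178 in WT and 0.378 in GKO mice, beside −0.015 and 0.028 over all genes with a value above 0. Tspan31 lay at 56.5 ± 32.7 TPM in GKO non-tumours and 240.7 ± 110.5 TPM in GKO tumours, but at 136.7 ± 49.2 and 149.0 ± 28.8 TPM in the 2 WT tissues (SD, n = 3). Tspan12, a co-receptor of the Norrin and Frizzled pathway singled out after its values were seen, had −1.79 (SE 0.52, limma adjusted p = 0.122) in WT mice, and was called lower there when all 18 samples were fitted together or WT tumour 3 was left out.

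The WT count of 1 was 0 without WT non-tumour 1, WT non-tumour 3, WT tumour 1 or WT tumour 2. It was 2 without WT non-tumour 2, and 6, of which 5 were higher, when WT tumour 3 was left out. It was also 0 without a filter or with WT tumours 1 and 2 averaged, 2 after median centring, after quantile normalization or with voom, and 5, of which 4 were higher, with 1 fit of all samples. The GKO count of 4 was 0 without GKO non-tumour 2 or GKO non-tumour 3, 1 without GKO tumour 1 and 2 without GKO tumour 3, and 1 without a filter and 2 with a filter at 5 TPM. Between GKO and WT tumours limma and voom called 0 of the 13.

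**Figure D5:**
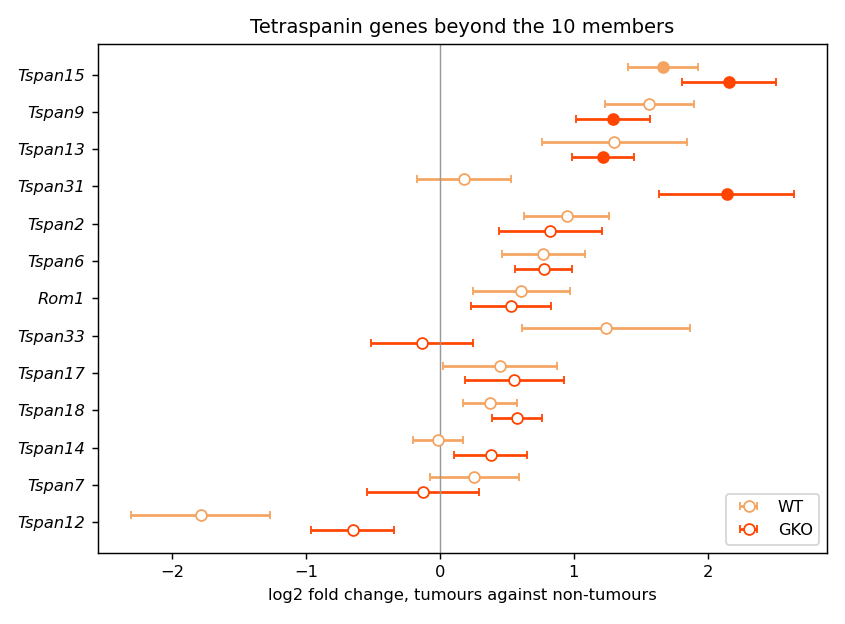
Log2 fold changes of 13 further tetraspanin genes, tumours against non-tumours, with their SE, in WT (light) and GKO (dark) mice. Filled points have a limma adjusted p under 0.05: Tspan15 in both genotypes, and Tspan9, Tspan13 and Tspan31 in GKO mice.

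Proteins that bind tetraspanins were followed with 16 genes. In WT mice 1 of the 14 tested rose in tumours, Ptgfrn (1.12, SE 0.20, limma adjusted p = 0.031), an immunoglobulin superfamily partner of Cd9 and Cd81, where 4.23% of all genes were called. In GKO mice 4 of 15 rose: Hbegf, a growth factor whose precursor binds Cd9 (2.01, SE 0.41), Igsf8, another partner of Cd9 and Cd81 (1.67, SE 0.33), Itga6, the laminin-binding integrin chain that pairs with Cd151 (1.56, SE 0.19), and Ptgfrn (1.32, SE 0.18), with limma adjusted p-values of 0.00667 to 0.0253, where 11.7% of all genes were called. Ptgfrn in both genotypes and Itga6 in GKO mice had a mean under 0.5 TPM in non-tumours and passed the filter only through the tumours, so they are no support for the list. Over all 16 genes the median was 0.593 in WT and 0.718 in GKO mice. All genes with a value above 0 had medians of −0.015 and 0.028, and all genes tested had −0.024 and 0.199. Between GKO and WT tumours, Hbegf had the lowest unadjusted p, with 1.51 (SE 0.41, limma adjusted p = 0.414), and 0 of 14 were called. The WT count of 1 was 0 without any 1 of WT non-tumours 1 and 3 and WT tumours 1 and 2, 2 without WT non-tumour 2 and 3 without WT tumour 3. The GKO count of 4 was 2 without GKO non-tumour 2 and 1, Itga6, without GKO non-tumour 3. Without a filter the counts were 0 in WT and 2 in GKO mice, with a filter at 5 TPM 0 and 1, and with 1 fit of all samples 5 and 8. The WT count was also 0 with the replicate block or WT tumours 1 and 2 averaged.

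The route of Cd63 through endosomes and lysosomes was followed with 17 genes of multivesicular bodies and exosomes and 24 lysosomal genes. Of the former, 15 were tested and 0 were called in either tumour comparison, with medians over the 17 of 0.0 in WT and 0.337 in GKO mice. For both lists, the medians over all genes tested were −0.024 in WT and 0.199 in GKO mice. Over all genes with a value above 0 they were −0.015 and 0.028. Hgs, one of the 17, stands in 2 rows of the table and passed the filter in neither. Of the 24 lysosomal genes 0 were called in WT mice (median −0.076) and 3 in GKO mice (median 0.613), Gusb (1.31, SE 0.32), Asah1 (1.24, SE 0.32) and Hexa (1.04, SE 0.27), all higher in tumours and all encoding lysosomal hydrolases, with limma adjusted p-values of 0.0415 to 0.0496, where 11.7% of all genes were called. After median centring Gusb alone of the 3 was called, and 0 were without GKO non-tumours 2 or 3 or GKO tumours 1 or 3, 1 was without GKO tumour 2, and 7 were without GKO non-tumour 1. The count was 0 without a filter, 5 with the replicate block and 8 with 1 fit of all samples. Lamp1, a lysosomal membrane protein, had −0.11 (SE 0.29) in WT and 1.15 (SE 0.46, limma adjusted p = 0.137) in GKO mice, with overlapping groups in both. Lamp2, another such protein, was called in neither genotype. It had −0.78 (SE 0.26, limma adjusted p = 0.166) in WT mice, where each tumour lay below each non-tumour. In GKO mice it had −0.30 (SE 0.26, limma adjusted p = 0.455), with overlapping groups. Between GKO and WT tumours limma and voom called 0 genes of either list.

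Markers of the cells that a liver tumour can hold were set beside these values, in comparisons that called 4.23% of all genes in WT and 11.7% in GKO mice. Of 10 hepatocyte genes 2 (Alb and Ahsg) rose in WT and 4 (Alb, Ahsg, Apoa1 and Fgb) in GKO tumours. The median over the 10 was 0.205 in WT and 0.441 in GKO mice, beside −0.024 and 0.199 over all genes tested. Of the cholangiocyte genes, 0 of 6 were called in WT and 0 of 7 in GKO tumours. A positive difference was found for 2 of the 6 and for all 7, with medians of −0.537 and 0.765. In GKO mice 2 of the 7 passed the filter only through the tumours. Over all 9 genes the medians were −0.158 and 0.698. Endothelial genes had 0 of 12 called in WT and 4 of 12 (Cdh5, Emcn, Pecam1 and Tie1) higher in GKO tumours. Called or not, 11 of these 12 had a positive difference in WT and 7 in GKO mice. The medians were 0.508 and 0.141, beside −0.024 and 0.199 over all genes tested. Stellate or fibroblast genes had 0 of 10 called in WT, and 5 of 11 higher and 1 lower in GKO tumours. Called or not, 6 of the 10 in WT and only 5 of these 11 in GKO mice had a positive difference. The medians were 0.275 and −0.18. Macrophage genes had 0 of 12 called in WT and 2 of 12 (Marco and Timd4) lower in GKO tumours. Of these 12, 0 had a positive difference in WT and 3 in GKO mice, with medians of −0.991 and −0.728. Of 7 T cell genes and of 4 neutrophil genes, 0 were called in either genotype. A positive difference was found for 3 of the T cell genes in WT and 0 in GKO mice (medians −0.136 and −0.426). It was found for 3 of the neutrophil genes in WT and 0 in GKO mice (medians 0.449 and −0.903). Leaving out 1 sample moved the counts of called genes. In GKO mice they lay between 0 and 4 for endothelial, 3 and 7 for stellate or fibroblast and 0 and 2 for hepatocyte genes. They lay between 0 and 3 for macrophage, 0 and 2 for neutrophil and 0 and 1 for cholangiocyte genes. In WT mice the counts of called genes lay between 0 and 2 for hepatocyte and 0 and 4 for macrophage genes. They lay between 0 and 1 for endothelial, cholangiocyte and stellate or fibroblast genes.

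Both Tspan8 and Cd9 are known from epithelial cells, and the bile ducts are the other epithelium of the liver. The sum of 9 cholangiocyte genes, of which none was at 0 throughout a group, was 31.5 to 94.2 TPM in livers and 25.1 to 55.1 TPM in WT tumours. It was 38.6, 968 and 551 TPM in GKO tumours, where Spp1 alone gave 934 TPM in GKO tumour 2 and 536 TPM in GKO tumour 3. In WT tumours it was within or below the range of livers. The part of bile duct cells in the levels of Tspan8 and Cd9 was not tested. The endothelial sum was 63.5 to 141 TPM in livers and 115 to 169 TPM in tumours, and the stellate or fibroblast sum 40.3 to 93.4 and 54.6 to 193 TPM. The part of these cells in the members' levels was not tested either.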

How the data were processed

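RNA of 18 mouse livers and tumours was sequenced on an Illumina HiSeq instrument. The authors aligned reads to mm10 with STAR 2.7.3a and counted them with featureCounts 2.0.0, per the submitters' processing notes, and deposited TPM, in which counts are divided by gene length and scaled to 1000000 per sample. The gene annotation, the strand setting and the calculation of TPM are not given in the sources used here. TPM carries no depth, so TPM times the exonic length of GENCODE mouse release 21 (54809 of 54838 genes matched by ID) was used to recover reads, which were whole within 0.02 for 97.95% to 98.67% of values of up to 30 reads. Recovered reads were used for depth and for voom only. The table held 0 columns without a sample.

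Samples were grouped by genotype, tissue and treatment in their labels. Each comparison was fitted in R 4.3.3 with limma 3.58.1, by lmFit and a trended eBayes, to log2(TPM + 1) of its own samples for genes whose mean reached 0.5 TPM, with Benjamini-Hochberg adjustment over all genes tested. The procedure was tested on simulated data. Tables and plots were made in Python 3.11.15 (matplotlib 3.10.9, pandas 2.3.3, numpy 2.4.6).

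The members, comparisons and gene lists were chosen with earlier results of these data known. The lists were further tetraspanins (21), tetraspanin partners (16), multivesicular body and exosome genes (17), lysosomal genes (24), and markers of hepatocytes (10), cholangiocytes (9), endothelial cells (12), stellate cells or fibroblasts (11), macrophages (12), T cells (10), B cells (9) and neutrophils (7), all found in the table. Named were all members, and of each list the called genes, at most 4 and those with the largest change whose groups do not overlap, or else the gene with the lowest unadjusted p. The 5 genes most like Cd63 were named by r. Tspan12, Lamp1, Lamp2, Spp1, Chid1, Tead2 and Hgs were named after their values were seen, as were further called markers. Calls in the B cell list are not reported here, and protein sequences were not used here.

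Alternatives tried were quantile normalization, median centring, 0.1 as the pseudocount, a filter at 5 TPM or none, eBayes with no trend, a replicate block, 1 fit of all 18 samples, WT tumours 1 and 2 averaged, leaving out each sample and, added after seeing the data, voom.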

Additional observations from a re-analysis of the deposited data

How the results depend on the processing

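The labels give groups the same replicate numbers, but same-numbered samples did not clearly deviate together. The correlation of their deviations from the group means lay between −0.30 and 0.24 over the comparisons. In no comparison were all 3 above 0.1, so the samples were not treated as pairs. Such correlations cannot exclude that some samples came from 1 mouse. With the replicate block, 2 members (Cd9 and Tspan8) in place of 1 were called in WT tumours against non-tumours, and in GKO mice 2 were called with and without it, but Tspan4 (limma adjusted p = 0.0365) took the place of Tspan3 (0.0801). In the other comparisons 0 were called with it.

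In WT tumours against non-tumours the count of 1 was also 2 with a mean of at least 5 TPM, quantile normalization or all 18 samples in one fit, and 0 to 2 leaving out 1 sample. In GKO tumours against non-tumours the count of 2 was 0 with no filter, 1 with voom, median centring, quantile normalization or a filter at 5 TPM, 4 with all 18 samples in one fit (Cd151, Tspan3, Tspan4 and Tspan8), and 0 to 1 leaving out 1 sample. Between GKO and WT tumours the count of 0 was 1, Cd9, with all 18 samples in one fit. In the other comparisons, 0 members were called under each alternative.

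Among the values followed across all alternatives, 3 turned direction. The log2 fold change of Tspan8 between GKO and WT tumours ran from −2.60 to 0.12 leaving out 1 sample, and turned without GKO tumour 3. That of Cd9 in GKO tumours against non-tumours ran from −0.31 to 0.94, and turned without GKO tumour 2. That of Tspan3 in WT non-tumours against normal livers was −0.053 after median centring. Differences near 0 of Cd53, Cd81, Cd151 and Tspan3 in other comparisons also turned under some scalings.

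Counts over all genes moved more. Between GKO and WT tumours 3 genes were called, 0 with a pseudocount of 0.1, median centring or voom, 107 with 1 fit of all samples and 149 without WT tumour 3. In WT tumours against non-tumours 592 were called, 297 without a filter, 361 with the replicate block, 185 with WT tumours 1 and 2 averaged, 1649 with all 18 samples in one fit, and 147 to 1347 leaving out 1 sample. In GKO mice 1652 were called, 589 without a filter, 1047 with a mean of at least 5 TPM, 2722 with all 18 samples in one fit, and 149 to 1544 leaving out 1 sample. WT non-tumours against normal livers gave 1, and 46 when all 18 samples were fitted. The difference of the genotype effect gave 2, 13 with all 18 samples in one fit and 91 without WT tumour 3. The cause of these shifts was not tested, beyond the smaller number of samples, or larger number of genes tested, that some alternatives bring. Depth limited Tspan8 and Cd63-ps in livers, where 0 to 28 and 0 to 7 reads were counted, and reads carry no molecular identifiers.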
